A study of Mus musculus with 11 samples.

Results

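Genes that take up, carry, store and release fatty acids were examined in dendritic cells of the mouse spleen, as a set of 10 listed genes. They are the fatty acid carriers Fabp4 and Fabp5, the uptake genes Lpl and Cd36, the activating enzyme Acsl1, the regulator Pparg, the storage genes Dgat1, Dgat2 and Plin2, and the lipase Pnpla2. A probeset naming 1 gene was found for 9 of the 10, among 22180 genes with such a probeset. Acsl1 was not analysed here. The set was selected on log2 values of these same arrays, exposed against naive, since it was listed with earlier results known that already held the rises of Fabp5 and Lpl. Differences are therefore given as a description, and the number of members that passed the test supports nothing about the set. Where a gene had several probesets, the probeset of highest mean across the 11 arrays stands for it.

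The naive group held 6 arrays of dendritic cells from C57BL/6 mice without lymphoma. The exposed group held 5 arrays of cells from mice that had received Eµ-Myc lymphoma cells, a B cell lymphoma driven by a Myc transgene under an immunoglobulin enhancer. Per the labels all 11 samples have the C57BL/6 background, and in the exposed group the splenic tumour load averaged 10 to 36% of lymphocytes. The protocols also name CD11c.Cre and floxed C/EBPβ mice, but no label of these samples gives either allele. Sorting on CD11c and MHC class II gave cells of over 95% purity, whose total RNA was labelled and hybridised to 1 Affymetrix array per sample. No label gives the age of the mice or tells single mice from pools, so the p-values measure only the spread over these 11 samples, which may be technical.

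Lipoprotein lipase (Lpl) frees fatty acids from circulating triglycerides, the scavenger receptor CD36 brings them into the cell, and fatty acid binding proteins carry them in the cytosol. DGAT enzymes close triglyceride synthesis, perilipin 2 coats the lipid droplets where the product is kept, and adipose triglyceride lipase (Pnpla2) starts its release. PPARγ is a nuclear receptor that binds fatty acids and turns on many of these genes in fat cells and macrophages, and dendritic cells in tumours have been described to load lipid.

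Values are log2 expression as the authors made them with RMA, so a difference of 1 is 2-fold, and they do not allow levels of different genes to be ranked. Array medians lay between 5.53 and 5.61. The sort marker genes measured, Itgax, H2-Aa and H2-Ab1, averaged 12.94 to 13.04 on naive and 12.84 to 13.01 on exposed arrays, and Flt3 and Zbtb46, which mark conventional dendritic cells and were not used to sort, averaged 10.27 to 10.45 and 10.15 to 10.34. Of 8 type 2 dendritic cell markers 2 fell, Cd209a by 1.02 ± 0.13 (SE; adjusted p = 0.00345) and Clec4a4 by 0.43 ± 0.08 (SE; adjusted p = 0.0250), both with groups that did not overlap. The others of that list did not pass, and 3 of the 8 had positive differences. Of 4 NK cell markers 1 rose, Ncr1, by 0.46 ± 0.09 (SE; adjusted p = 0.0289). The others of that list did not pass, and 2 of the 4 had positive differences. Of all genes 0.546% passed as lower and 0.879% as higher, 2.29% had groups that did not overlap, and 53.5% had positive differences. The part of these marker shifts in the members' values was not tested. Titles number the arrays, and numbers 1 to 3 differed from 4 to 6 in the naive as in the exposed group. The labels give no reason for this, so the difference of each measured member is also given within these number sets. Markers of red pulp macrophages stood apart on 2 arrays: the mean of the 14 markers, none of them a member, was 7.94 to 8.97 on naive arrays, 10.42 on exposed array 1, 9.47 on exposed array 2 and 8.46 to 8.71 on the other 3 exposed arrays. Of these 14 markers 13 had positive differences and 0 passed the test, and the largest difference, 1.89 for Cd5l, had an adjusted p of 0.0693. None of these 14 markers averaged below 5.605, the 95th percentile of 1105 olfactory receptor genes, which serves here as a mark for dim signal. In each group 3 of the 4 NK cell markers averaged below it. These are bulk samples, so a change in the share of a cell type cannot be told apart from a change of RNA per cell.

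The starts of the regulator Pparg are shown because the series asks about C/EBPβ, a factor known to act on Pparg in fat cells, and because 1 probeset reads Pparg here, so its starts cannot be told apart. RefSeq lists 3 starts of Pparg on the plus strand of GRCm38.p6, with windows of 250 bases before to 50 bases after the start at chr6:115360894-115361193, chr6:115362099-115362398 and chr6:115421816-115422115. Capitals mark matches, on either strand, to TTGCNNAA, a form of the C/EBP motif, or to AGGTCA, the core site that PPARγ and other nuclear receptors bind; no match of one overlapped the other.

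Pparg start 1: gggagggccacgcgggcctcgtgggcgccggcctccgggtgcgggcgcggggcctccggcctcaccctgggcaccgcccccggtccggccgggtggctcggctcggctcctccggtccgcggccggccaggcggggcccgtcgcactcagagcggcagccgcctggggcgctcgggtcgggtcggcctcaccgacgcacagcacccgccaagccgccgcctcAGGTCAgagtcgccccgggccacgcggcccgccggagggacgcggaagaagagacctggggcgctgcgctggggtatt
Pparg start 2: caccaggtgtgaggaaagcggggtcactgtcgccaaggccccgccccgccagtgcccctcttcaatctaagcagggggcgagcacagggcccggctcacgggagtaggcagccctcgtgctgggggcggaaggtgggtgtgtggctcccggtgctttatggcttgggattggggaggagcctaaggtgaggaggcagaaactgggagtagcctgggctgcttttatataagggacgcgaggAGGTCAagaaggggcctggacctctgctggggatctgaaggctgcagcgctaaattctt
Pparg start 3: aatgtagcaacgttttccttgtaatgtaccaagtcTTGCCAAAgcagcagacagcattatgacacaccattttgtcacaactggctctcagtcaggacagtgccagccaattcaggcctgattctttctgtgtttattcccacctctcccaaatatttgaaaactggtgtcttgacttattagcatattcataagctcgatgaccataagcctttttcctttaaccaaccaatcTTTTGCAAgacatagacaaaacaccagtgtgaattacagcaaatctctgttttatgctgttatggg

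Starts 1 and 2 held 1 AGGTCA match each, beginning 28 and 9 bases before the start, and no TTGCNNAA. Start 3, the farthest downstream, held 2 TTGCNNAA matches, beginning 215 and 16 bases before the start, and no AGGTCA. Among all 32851 windows of this length, 10.8% held TTGCNNAA and 16.3% AGGTCA. The direct repeat that PPARγ prefers (AGGTCA, any 1 base, AGGTCA) occurred in 0.0396% of the windows and in none of the 5 members whose windows were listed. Those were Acsl1, Cd36, Plin2, Pnpla2 and Pparg. Those of Cd36 and Plin2 each held 1 AGGTCA, beginning 228 and 218 bases before the start, and outside Pparg none held TTGCNNAA. A match describes the letters and does not show that a factor binds.

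Between exposed and naive cells Fabp5, Lpl and Fabp4 were about 2-fold higher, while Pparg, at 0.72, and Dgat1, at -0.48, did not pass the test. Cd36, Dgat2, Plin2 and Pnpla2 differed by -0.06 to 0.19 and did not pass either. By limma with Benjamini-Hochberg adjustment over all 22180 genes, 3 of the 9 members rose (Fabp4, Fabp5 and Lpl) and 0 fell. Of all genes 1.42% passed in either direction, 0.879% of all genes higher and 0.546% of all genes lower. At an unadjusted p under 0.05 there were 5 members, the 3 named and Pparg and Dgat1, beside 12.2% of all genes. Within arrays 1 to 3 alone and within arrays 4 to 6 alone 1 member passed, Fabp5, beside 0.0496% and 0.0225% of all genes. The median difference of the 9 members was 0.19 and 7 of 9 were positive, against 0.0082 and 53.5% for all genes. The groups were fully apart for 4 members, Fabp4, Fabp5, Lpl and Pparg, as for 2.29% of all genes.

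**Figure D1:**
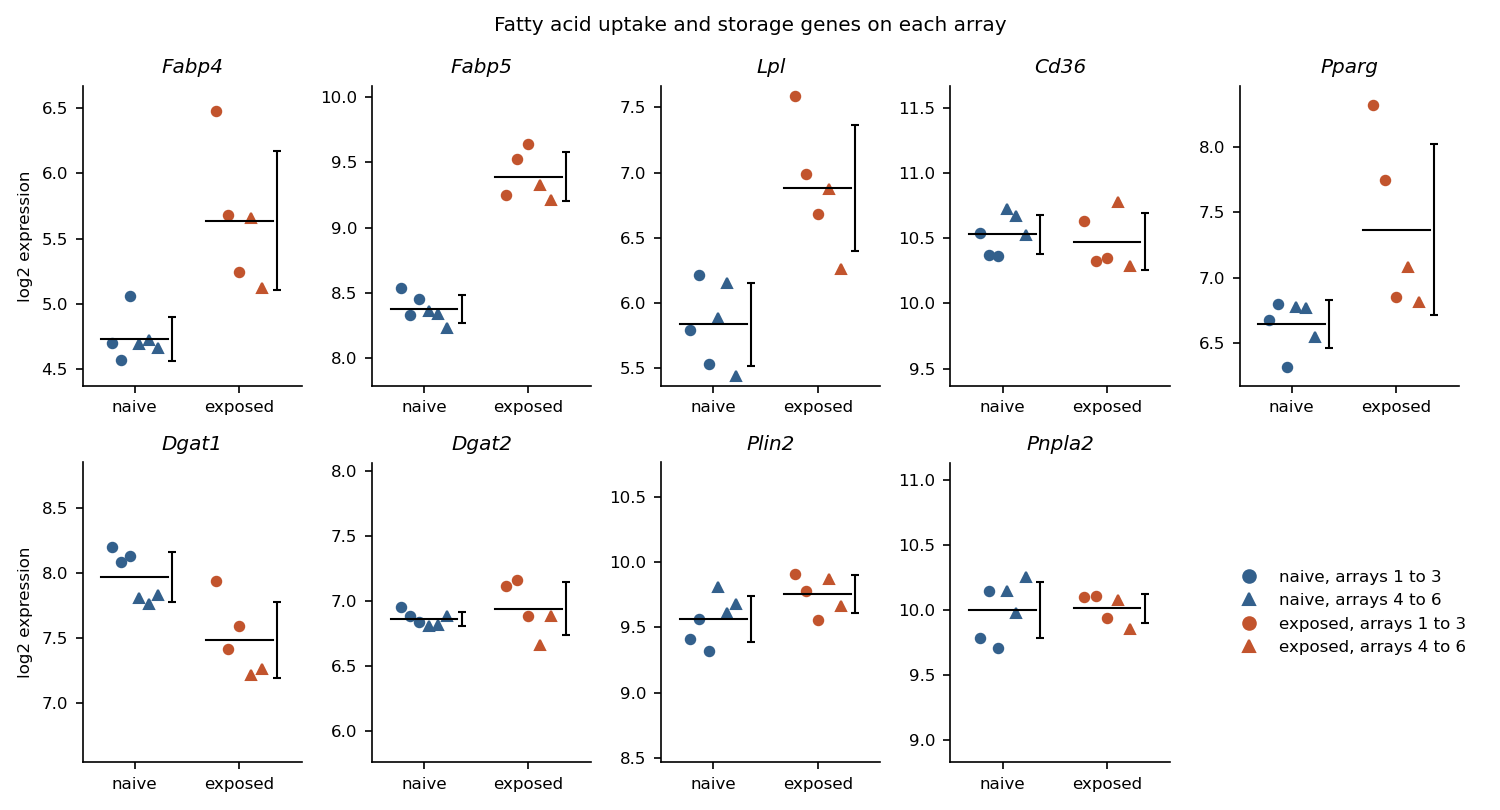
Log2 expression of the 9 measured members on each array, naive in blue and exposed in orange, with circles for arrays numbered 1 to 3 and triangles for 4 to 6; black lines are means and bars 1 SD (n = 6 and 5), and every panel spans the same log2 range. All exposed points lie above all naive points for Fabp4, Fabp5, Lpl and Pparg, and for Dgat1 each exposed symbol lies below the naive symbols of its own number set.

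Fabp5, which encodes the epidermal-type carrier found in many immune cells, ranged from 8.23 to 8.54 on naive arrays, with a median of 8.35. On exposed arrays 1, 2, 3, 4 and 6 it was 9.25, 9.53, 9.64, 9.32 and 9.21. The groups were separated by more than the spread within either, and array 3 was the highest of the exposed arrays. Fabp5 rose by 1.01 ± 0.08 (SE; 95% limits 0.84 to 1.19; n = 6 and 5), or 2.02-fold (adjusted p = 0.00026 in limma). Arrays 1 to 3 gave 1.03 and arrays 4 to 6 gave 0.95.

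Fabp5 has 3 further probesets on the array, and their naive and exposed values did not overlap either. Probeset 17548717 gave 1.04 ± 0.08 (SE), 17396056 gave 0.81 ± 0.09 and 17404073 gave 0.83 ± 0.12. The probeset used, 17548238, and 17548717 read nearly the same values on every array, and RefSeq lists a pseudogene copy named Fabp5l2, so the 4 probesets are not independent readings and a part of the signal may come from copies.

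Fabp4, the carrier of fat cells and macrophages, was dim: the naive arrays lay between 4.56 and 5.06, with a median of 4.69, all below the mark of 5.605. Exposed arrays 1, 2, 3, 4 and 6 gave 6.48, 5.68, 5.25, 5.66 and 5.12. Array 1 stood highest and arrays 3 and 6 stayed below the mark, but no exposed array reached down to a naive one. Fabp4 rose by 0.91 ± 0.19 (SE; 95% limits 0.49 to 1.32), with an adjusted p of 0.0338, with 1.03 in arrays 1 to 3 and 0.70 in arrays 4 to 6. Near background, RMA values tend to understate a change.

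Fabp5 and Fabp4 lie in a cluster of carrier genes on chromosome 3, where RefSeq orders them Fabp5, Pmp2, Fabp9, Fabp4 and Fabp12 with no other protein-coding gene between. The 3 others did not pass the test. Pmp2, the carrier of peripheral myelin, differed by -0.12 ± 0.06 (SE; adjusted p = 0.520), Fabp9 by 0.07 ± 0.09 (adjusted p = 0.827) and Fabp12 by -0.04 ± 0.08 (adjusted p = 0.900). Their naive means of 3.78, 3.52 and 5.22 were below the dim mark. The genes flanking the cluster, Pag1 and Impa1, differed by 0.11 and -0.002 and did not pass either (adjusted p = 0.675 and 0.993).

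Lpl ranged from 5.44 to 6.22 on naive arrays, with a median of 5.84. Exposed arrays 1, 2, 3, 4 and 6 gave 7.59, 6.99, 6.69, 6.87 and 6.26. The lowest exposed array, number 6, lay only just above the highest naive array, number 2. Lpl rose by 1.04 ± 0.20 (SE; 95% limits 0.61 to 1.48), or 2.06-fold (adjusted p = 0.0239). Arrays 1 to 3 gave 1.24 and arrays 4 to 6 gave 0.74. Its other probeset, 17509775, averaged 3.85 on naive and 4.06 on exposed arrays, below the dim mark, and gave 0.22 ± 0.11 (SE; adjusted p = 0.494 over all probesets).

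CD36 is the receptor that binds long-chain fatty acids and oxidised lipoproteins. Its gene ranged from 10.36 to 10.72 on naive arrays, with a median of 10.53. On exposed arrays 1, 2, 3, 4 and 6 it was 10.63, 10.33, 10.35, 10.78 and 10.28, and the groups overlapped. Cd36 differed by -0.06 ± 0.10 (SE, adjusted p = 0.884), with 95% limits of -0.27 to 0.15. These limits lay below the differences of Lpl and Fabp5, and they measure only the spread over these 11 samples. Arrays 1 to 3 gave 0.01 and arrays 4 to 6 gave -0.11.

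Pparg ranged from 6.31 to 6.80 on naive arrays, with a median of 6.72. Exposed arrays 1, 2, 3, 4 and 6 gave 8.33, 7.75, 6.85, 7.08 and 6.81. All 5 lay above the naive arrays, but arrays 1 and 2 were far higher than the other 3, and the SD was 0.66 in exposed against 0.19 in naive cells. Pparg differed by 0.72 ± 0.23 (SE; 95% limits 0.22 to 1.22) and did not pass the test (adjusted p = 0.178). Arrays 1 to 3 gave 1.05 and arrays 4 to 6 gave 0.25. An interaction term between group and number set had an unadjusted p of 0.0822 and an adjusted p of 0.992 for Pparg, and passed for 0 of the 9 members, of which 0 had an unadjusted p under 0.05; over all genes 0 passed and 943 (4.25%) had an unadjusted p under 0.05.

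**Figure D2:**
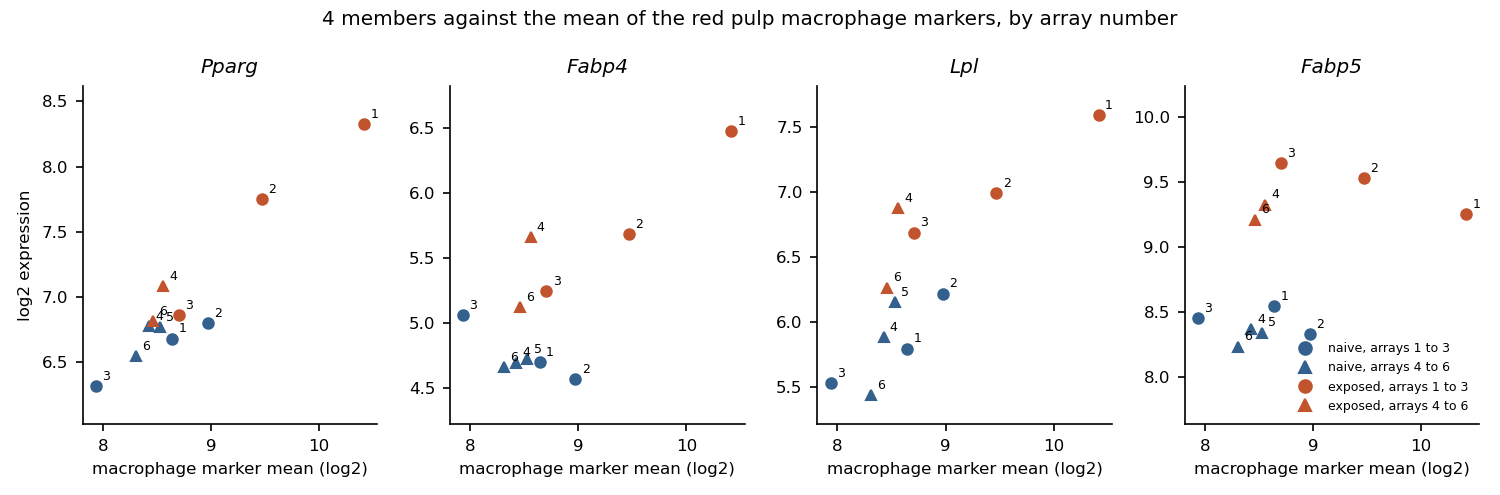
Log2 expression of Pparg, Fabp4, Lpl and Fabp5 (vertical axes, equal spans) against the mean log2 expression of the 14 red pulp macrophage markers (horizontal axes) on each of 11 arrays, with array numbers beside the points. Exposed arrays 1 and 2, at marker means of 10.42 and 9.47, are the highest of all arrays for Pparg and Lpl, while the highest Fabp5 value, 9.64, is on exposed array 3 at a marker mean of 8.71.

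The red pulp macrophage marker mean shared its highest arrays with Pparg, Fabp4 and Lpl. Exposed arrays 1 and 2, the highest for the marker mean, were also the highest for all 3 genes. On exposed arrays 3, 4 and 6 the marker mean was 8.71, 8.56 and 8.46, while of these arrays number 4 was the highest for all 3 genes. Among naive arrays, array 2 was highest and array 3 lowest for both the marker mean and Pparg; Fabp4 went the other way there, with array 3 highest and array 2 lowest. Fabp5 did not share these highest arrays, since for it exposed array 1 was below arrays 2, 3 and 4.

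With the marker mean as a covariate the difference was 0.25 ± 0.10 for Pparg (SE; adjusted p = 0.303), 0.64 ± 0.18 for Fabp4 (adjusted p = 0.124), 0.68 ± 0.13 for Lpl (adjusted p = 0.0302) and 1.03 ± 0.10 for Fabp5 (adjusted p = 0.00118), where 0.974% of all genes passed. Without exposed arrays 1 and 2 together, a choice made after seeing the data, Pparg differed by 0.27 ± 0.11 (SE; adjusted p = 0.417), Fabp4 by 0.61 ± 0.13 (adjusted p = 0.0709), Lpl by 0.77 ± 0.18 (adjusted p = 0.101) and Fabp5 by 1.02 ± 0.10 (adjusted p = 0.00111), and 0.446% of all genes passed. The part of macrophages in the values of these 4 genes was not tested. Among 7 monocyte markers, 4 had positive differences and 0 passed, and their mean was 6.80 to 7.40 on naive and 6.80 to 7.45 on exposed arrays. Single markers of this list were uneven. Fcgr1 was 9.33 and 8.74 on exposed arrays 1 and 2, above the naive highest of 7.35. On exposed arrays 3, 4 and 6 Fcgr1 was 6.26 to 6.61. Csf1r had groups that did not overlap, with a difference of 0.41 ± 0.15 (SE; adjusted p = 0.249). In each group 2 of the 7 averaged below the dim mark. The fat cell genes measured, Adipoq, Lep, Retn, Plin1 and Cidec, averaged 4.89 to 5.13 on naive and 4.95 to 5.05 on exposed arrays, with 0 of 5 past the test and Adipoq at 4.12 and 4.13, below the dim mark.

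Dgat1 and Dgat2 encode unrelated enzymes that both add the last fatty acid to diacylglycerol. Dgat1 ranged from 7.76 to 8.20 on naive arrays, with a median of 7.96, and arrays 1 to 3 (8.09 to 8.20) lay above arrays 4 to 6 (7.76 to 7.83). Exposed arrays 1, 2, 3, 4 and 6 gave 7.94, 7.42, 7.59, 7.22 and 7.27. Exposed array 1 fell within the naive range and the other 4 below it, but within each number set all exposed arrays were below all naive arrays. Dgat1 differed by -0.48 ± 0.13 (SE; 95% limits -0.75 to -0.21) and missed the threshold (adjusted p = 0.0882). Arrays 1 to 3 gave -0.49 and arrays 4 to 6 gave -0.56. With the number set as a block Dgat1 fell by 0.52 on the log2 scale (adjusted p = 0.00587), the only change of call among the 9 members in that fit. In it 2.78% of all genes passed in either direction, and 1.14% of all genes passed as lower. It also passed with the macrophage marker mean as a covariate (-0.65 ± 0.12, SE; adjusted p = 0.0278) and without exposed array 1 (-0.59 ± 0.10, SE; adjusted p = 0.0185), where 1.48% of all genes passed, and missed narrowly without exposed arrays 1 and 2 together (-0.61 ± 0.12, SE; adjusted p = 0.0542).

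Dgat2 ranged from 6.81 to 6.95 on naive arrays, with a median of 6.86. On exposed arrays 1, 2, 3, 4 and 6 it was 7.11, 7.16, 6.89, 6.66 and 6.89, on both sides of the naive range. The difference was 0.08 ± 0.08 (SE; 95% limits -0.10 to 0.25; adjusted p = 0.788). Arrays 1 to 3 gave 0.16 and arrays 4 to 6 gave -0.06.

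Plin2, which encodes the droplet coat protein found in most cells that hold lipid, ranged from 9.32 to 9.81 on naive arrays, with a median of 9.58. Exposed arrays 1, 2, 3, 4 and 6 gave 9.91, 9.78, 9.56, 9.87 and 9.66, and arrays 1 and 4 were above the naive range and the other 3 within it. The difference was 0.19 ± 0.09 (SE; 95% limits -0.0009 to 0.38; adjusted p = 0.412), with 0.31 within arrays 1 to 3 and 0.07 within arrays 4 to 6.

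Pnpla2, which encodes the lipase that takes the first fatty acid off a stored triglyceride, ranged from 9.71 to 10.25 on naive arrays, with a median of 10.06. On exposed arrays 1, 2, 3, 4 and 6 it was 10.10, 10.10, 9.94, 10.07 and 9.85, all within the naive range. The difference was 0.01 ± 0.09 (SE; 95% limits -0.19 to 0.22; adjusted p = 0.981). Its sign turned between number sets, at 0.17 within arrays 1 to 3 and -0.16 within arrays 4 to 6.

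**Figure D3:**
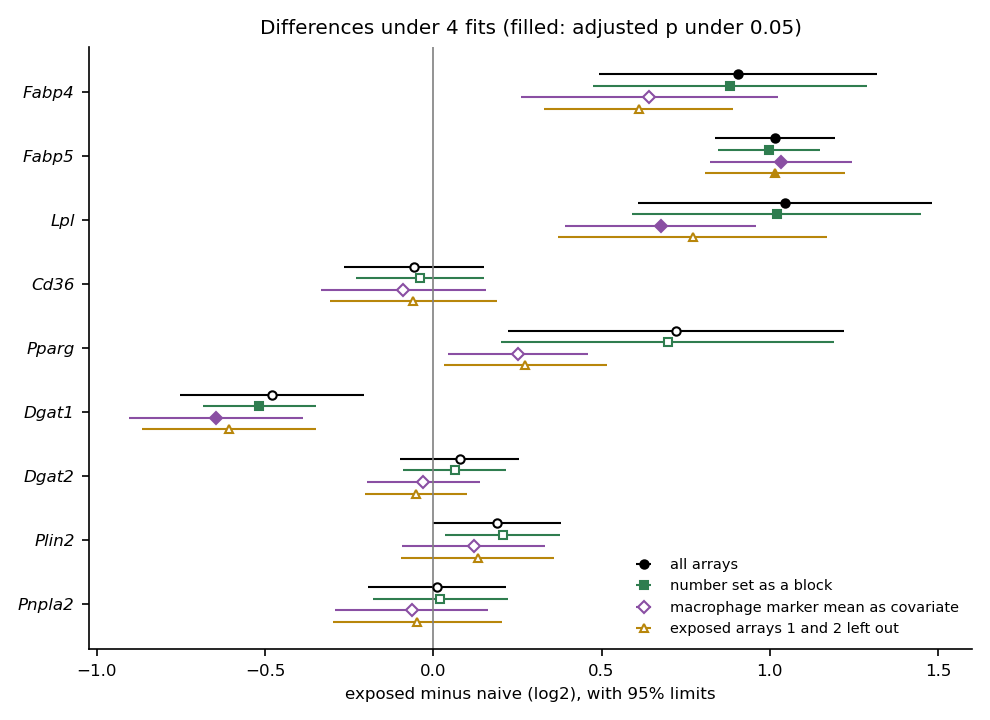
Differences of the 9 measured members between exposed and naive cells (log2, horizontal axis) with 95% limits, from 4 limma fits shown by colour and symbol; filled symbols have an adjusted p under 0.05. Fabp5 stays near 1.0 in all 4 fits, from 1.00 to 1.03, Pparg goes from 0.72 to 0.25 with the macrophage marker mean as a covariate, and Dgat1 is filled with the number set as a block and with the covariate.

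Leaving out 1 array changed the calls of Lpl and Fabp4. Fabp5 passed in all 11 fits that left out 1 array, with adjusted p of at most 0.00199. Lpl passed in 7, and missed without naive arrays 1 (adjusted p = 0.0548), 3 (0.063) and 6 (0.0577) and without exposed array 2 (0.0734). Fabp4 passed in 4, and missed without naive arrays 1 (0.0741), 2 (0.0826), 4 (0.0657), 5 (0.0787) and 6 (0.0781) and without exposed arrays 2 (0.0967) and 4 (0.0683). Without exposed array 1, the highest for both genes, Lpl (0.0289) and Fabp4 (0.0193) passed. In the fits where either gene missed, 104 to 240 of all genes passed, against 316 with all arrays. Across the exposed group, array 1 was the highest for 5 members (Fabp4, Lpl, Pparg, Dgat1 and Plin2) and array 6 the lowest for 6 (Fabp4, Fabp5, Lpl, Cd36, Pparg and Pnpla2).

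The wider lipid pathway was described with 87 other genes in 9 lists, of which 79 were measured. One of them rose, the long-chain acyl-CoA dehydrogenase Acadl, and 0 fell, which is near the 1.42% called among all genes. At an unadjusted p under 0.05 there were 13 of 79, beside 12.2% of all genes. The median difference was 0.01 and 47 of 79 were positive, beside 0.0082 and 53.5% for all genes. Acadl, which carries out an early step of mitochondrial fatty acid oxidation, had naive arrays at 9.93 ± 0.04 (SD, n = 6) and exposed arrays at 10.17 ± 0.10 (SD, n = 5), which did not overlap, and rose by 0.24 ± 0.05 (SE; adjusted p = 0.0337). When single arrays were left out Acadl passed in 2 of 11 fits, those without exposed array 4 or 6, and its adjusted p reached 0.0938 without exposed array 2. With the macrophage marker mean as a covariate Acadl differed by 0.18 ± 0.05 (SE; adjusted p = 0.128). In that fit, and without exposed array 1, the 1 lipid gene that passed was the desaturase gene Fads2 instead, with 0.40 ± 0.09 (SE; adjusted p = 0.0467) and 0.37 ± 0.07 (SE; adjusted p = 0.0324).

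**Figure D4:**
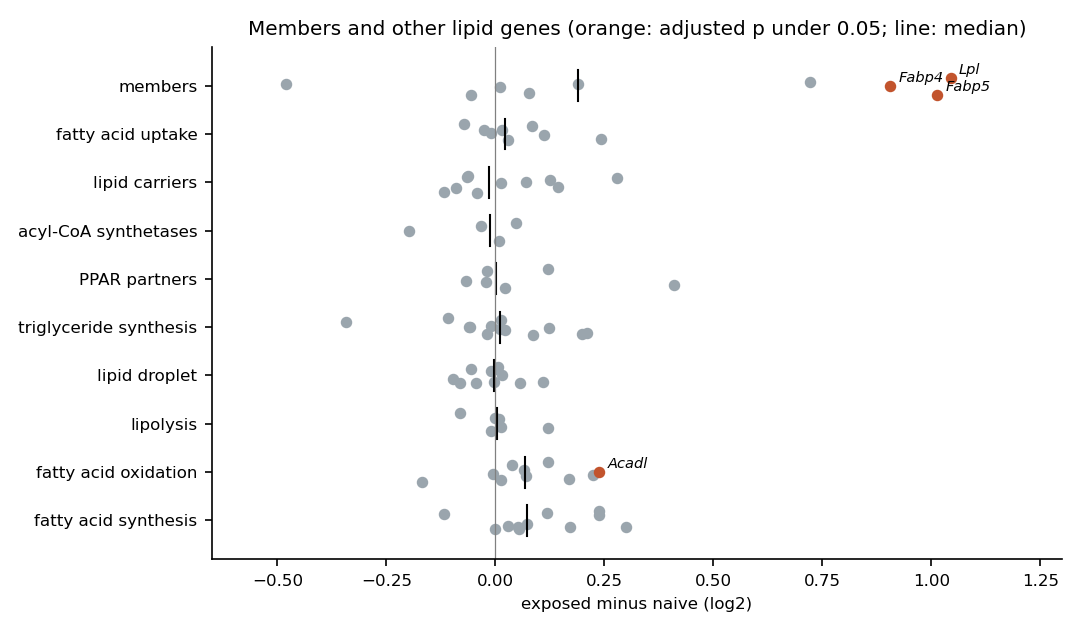
Differences between exposed and naive cells (log2, horizontal axis) for the 9 measured members and the 79 other lipid genes by list; each point is a gene, orange marks an adjusted p under 0.05 and black lines are medians. Apart from Acadl, no gene of the 9 other lists is orange, and their medians lie between -0.01 and 0.07.

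The lists with 0 genes past the threshold are given by their gene of largest difference. Among 8 uptake genes this was the transporter Slc27a3 (0.24 ± 0.10, SE; adjusted p = 0.345). The Lpl partners on the list had small mean differences, with -0.03 for Lmf1, a factor that matures lipases, 0.03 for Gpihbp1, the endothelial anchor of Lpl, and -0.01 for its inhibitor Angptl4. Angptl4 was uneven, at 6.71 on exposed array 1, above the naive range of 5.87 to 6.20. On exposed arrays 3, 4 and 6 it was 5.81, 5.76 and 5.79, below that range. Among 10 lipid carriers the gene of largest difference was the brain-type Fabp7 (0.28 ± 0.13; adjusted p = 0.432). Fabp3, the heart-type carrier, was measured at 9.94 ± 0.10 (SD, n = 6) and 9.87 ± 0.04 (SD, n = 5). Among 4 measured acyl-CoA synthetases it was Slc27a2 (-0.20 ± 0.12, SE; adjusted p = 0.576).

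Of the 6 measured PPAR partners, Rxra, the receptor that PPARγ pairs with on DNA, had the largest difference (0.41 ± 0.14, SE; adjusted p = 0.213). Rxra was highest on exposed arrays 1 and 2, at 8.21 and 7.70, the arrays with the highest macrophage marker means. Its difference was 0.17 with the marker mean as a covariate, 0.19 without both arrays and 0.26 without exposed array 1, and it passed in none of these. The related receptors Ppara and Ppard both differed by -0.02. In triglyceride synthesis 2 of 13 genes had groups that did not overlap without passing the test, as did 2.29% of all genes whether or not they passed, namely the acyltransferases Agpat4 (-0.34 ± 0.10, SE; adjusted p = 0.129) and Agpat5 (0.20 ± 0.07, SE; adjusted p = 0.210). Among 11 lipid droplet genes the largest difference was 0.11 ± 0.07 for Plin3 (SE; adjusted p = 0.609), and among 6 lipolysis genes 0.12 ± 0.06 for Abhd5, the co-activator of the Pnpla2 lipase (SE; adjusted p = 0.474). Of 11 fatty acid synthesis genes 9 were positive, with a median of 0.07, and Fads2 led over all arrays with 0.30 ± 0.09 (SE; adjusted p = 0.121).

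The genes whose profiles over the 11 arrays were most like those of Fabp5 and Lpl were found by the root mean square difference in log2 after each gene was centred on its own mean. For Fabp5 they were the kinase gene Ikbke (0.14), the lymphotoxin gene Lta (0.16), the adhesion receptor Adgrg6 (0.18), the carbonic anhydrase Car2 (0.20) and the autophagy regulator Dram1 (0.20). For Lpl they were the oxysterol receptor Nr1h3 (0.19), the carbonic anhydrase Car13 (0.19), the interleukin 12 subunit Il12b (0.21), the membrane protein gene Ms4a4a (0.22) and the semaphorin gene Sema6d (0.23). These genes were picked on the same 11 arrays, both groups together. Differences near that of the gene they resemble therefore follow from the choice and are no separate result. The 5 genes nearest to Fabp5 all passed the test, with differences from 0.79 (Car2) to 0.98 (Lta). Of those nearest to Lpl, Nr1h3 (1.09), Car13 (1.24) and Il12b (0.81) passed, while Ms4a4a (0.95; adjusted p = 0.0840) and Sema6d (0.72; adjusted p = 0.142) did not. The groups overlapped for Il12b, Ms4a4a and Sema6d. With the number set as a block Ms4a4a passed (adjusted p = 0.0333) and Sema6d did not (adjusted p = 0.111). Il12b passed in 3 of the 11 fits that left out 1 array.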

How the data were processed

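Gene expression of sorted splenic dendritic cells was measured on 11 arrays, 6 naive and 5 exposed. The deposited log2 values, 1 per probeset and array, were made by the authors with RMA, per the submitters' processing notes, which corrects background, normalises between arrays and summarises probes; its version and a genome build are not given in the sources used here. Of 41801 probesets 7329 were blank on every array, 23521 named 1 gene, 1814 several and 9137 none. The number of arrays limits the precision. Exposed minus naive differences came from limma 3.58.1 in R 4.3.3 (lmFit, eBayes with trend, Benjamini-Hochberg over 22180 genes, threshold 0.05), two-sided; SE is the moderated standard error. No dim gene was removed. The members and all gene lists were chosen with earlier results of these data known. By rule, the genes named were all members, the called or largest gene of each lipid list, and the 5 genes nearest in profile to Fabp5 and to Lpl. Others were named by choice outside this rule. These were single marker genes, the Lpl partners, Fabp3, Ppara, Ppard, Agpat5 and the neighbours of Fabp5 and Fabp4. Promoter windows came from RefSeq (GRCm38.p6). The replicate numbers were not taken to pair arrays. After removal of group means, naive and exposed arrays of the same title number correlated at 0.0880 to 0.231, which does not settle whether the numbers pair arrays. With the title number as a replicate block the SE of Lpl was 0.14 against 0.20 without it, and that of Fabp4 0.20 against 0.19. The fit was tested on simulated data. Alternatives were other limma settings, scalings, probeset rules, blocks, a marker covariate and arrays left out.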

Additional observations from a re-analysis of the deposited data

Results flagged for a closer look

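Over 28 genes (the members, the leading gene of each lipid list and the genes nearest in profile to Fabp5 and Lpl) and the red pulp macrophage marker mean, 58 groups of arrays were examined for a sample far from the others, which chance gives in about 1 of 20 groups, and 2 such samples were found. Fabp4 on naive array 3 was 5.06, while the other naive arrays lay between 4.56 and 4.72. Dram1, among the genes most like Fabp5, was 8.60 on exposed array 3, while the other exposed arrays lay between 8.14 and 8.17.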

How the results depend on the processing

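The main count of members that passed was 3. Each number set alone gave 1 (Fabp5), and the added choice of leaving out exposed arrays 1 and 2 gave 1 (Fabp5). Leaving out 1 array gave 1 to 4 members, 104 to 395 of all genes (against 316) and 0 to 1 of the other lipid genes (against 1, Acadl; the gene was Fads2 without exposed array 1, as with the macrophage covariate); all genes numbered 104 without exposed array 2. All genes numbered 617 with the number set as a block, 11 in arrays 1 to 3 alone, 5 in arrays 4 to 6 alone and 99 without exposed arrays 1 and 2. The other lipid genes numbered 0 without trend, with a common 75th percentile, in each number set alone and without exposed arrays 1 and 2. That scaling gave 168 higher and 223 lower genes, 43.0% higher against 61.7%, and left the same 3 members called. Same-numbered arrays were not taken as pairs; with the title number as a replicate block 341 genes passed and 0 other lipid genes, and the members were Fabp5, Lpl and Dgat1, and with the characteristic's number as a replicate block 182 genes and 0 other lipid genes passed, with Fabp5 and Dgat1; the naive array of the same number was the best match for 2 of 5 exposed arrays. Fabp4 could not pass with dim genes removed, since the filter left it out.

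Signs turned among members that passed in no fit. Pnpla2 was -0.0063 with median centring, -0.027 with a common 75th percentile, -0.16 in arrays 4 to 6 alone, -0.065 with the macrophage covariate, -0.048 without exposed arrays 1 and 2, and -0.047 to 0.061 with 1 array left out. Dgat2 was -0.063 in arrays 4 to 6 alone, -0.030 with the covariate and -0.052 without exposed arrays 1 and 2. Cd36 was 0.012 in arrays 1 to 3 alone. The causes were not tested. Near background, as for Fabp4, signal limits what a difference can show.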
